A study of Homo sapiens with 6 samples.

Results

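The genes described here are 10 members of the Hippo signalling pathway and its output in AsPC-1 cells, an established human pancreatic adenocarcinoma line. They were taken by symbol from the 26228 rows of the deposited expression table, and all 10 were found: CTGF (now CCN2), CYR61 (now CCN1), ANKRD1, AMOTL2, YAP1, WWTR1, TEAD1, LATS1, LATS2 and AJUBA. RNA was compared between 3 libraries of AsPC-1 cells given DON and 3 libraries of AsPC-1 cells given vehicle. DON is 6-diazo-5-oxo-L-norleucine, a compound that resembles glutamine and inactivates enzymes using it. Both groups were kept for 24 h in medium without serum, so the absence of serum is shared by all 6 libraries. AsPC-1 is one line, and nothing in the labels says whether the replicates came from separate cultures, so each p-value below speaks of the scatter among these 6 libraries, part or all of which may be technical. The study asked which transcripts are raised when glutamine metabolism is blocked.

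The Hippo pathway is a kinase relay that restrains growth. The MST kinases activate LATS1 and LATS2, which phosphorylate the coactivators YAP (YAP1) and TAZ (WWTR1), and phosphorylated YAP and TAZ are held in the cytoplasm or degraded. Unphosphorylated YAP and TAZ enter the nucleus, bind TEAD transcription factors and raise genes such as CTGF, CYR61, ANKRD1 and AMOTL2. The relay acts mainly on proteins, and the data here are mRNA levels.

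RNA levels were given as FPKM, which scales fragment counts by the length of the transcript and by the mapped fragments of the library. FPKM sums lay between 525200 and 556950 per library, and 11292 to 11474 genes reached 1 FPKM. Absolute depth is unknown. Steps between the lowest values gave depths of 1.26 to 1.40 times that of vehicle 1 for the DON libraries and of 1.29 and 1.69 times for the other two vehicle libraries. Each of these depths is the commonest ratio to vehicle 1 and rests on 46 to 71 of the 671 to 768 genes compared. The first principal component held 61.6% of the variance and separated DON from vehicle. The second held 19.7% and set DON 1, vehicle 1 and vehicle 2 apart from DON 2, DON 3 and vehicle 3. Of 6 epithelial markers with a value in every library, 6 reached 1 FPKM in at least 3 libraries, and their summed level was 2930 to 4102 FPKM in DON and 3467 to 4480 FPKM in vehicle. One of 8 fibroblast markers, LUM, and 2 of 8 immune and endothelial markers, LYZ and CD68, passed the same level. The fibroblast sum was 88.8 to 124 FPKM in DON and 141 to 172 FPKM in vehicle, while PDGFRA and THY1 stood at the table's floor of 0.01 FPKM in every library. The immune and endothelial sum was 102 to 152 FPKM in DON and 231 to 356 FPKM in vehicle, with CD3E at the floor in every library. Both sums lay lower in DON. LUM made up most of the fibroblast sum, at 110 ± 19.2 FPKM in DON and 153 ± 16.0 FPKM in vehicle. The labels name AsPC-1 cells alone, so a lower sum is no measure of another cell type. LYZ made up most of the immune and endothelial sum, at 98.5 ± 19.9 FPKM in DON and 250.3 ± 67.8 FPKM in vehicle (SD, n = 3 each), while CD68 had the higher mean in DON, at 32.8 ± 7.19 FPKM in DON and 22.6 ± 5.72 FPKM in vehicle, with overlapping groups. The part of these markers in the results was not tested. In bulk RNA, fewer cells of a type and less RNA per cell cannot be told apart.

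With DON, the YAP targets CTGF, CYR61 and AMOTL2 and the coactivator gene WWTR1 fell, and the LATS inhibitor AJUBA and the kinase LATS1 rose. A gene was called when limma, fitted to log2(FPKM + 1) over the 11471 genes that reached 1 FPKM in 3 or more libraries, gave a Benjamini-Hochberg adjusted p under 0.05. By that rule 38.9% of all tested genes were called, 18.3% higher and 20.6% lower in DON. Of the 9 members tested, 6 were called, 2 higher and 4 lower, and 3 were not called. The members were chosen with earlier results of these data known, so their share does not stand for the pathway. ANKRD1 did not reach the level needed for a test. CTGF, CYR61 and AMOTL2 fell. Of the 6 pathway parts (YAP1, WWTR1, TEAD1, LATS1, LATS2 and AJUBA), 2 rose, 1 fell and 3 were not called, among them LATS2, a kinase that is itself also a YAP target. The DON and vehicle libraries did not overlap for 8 members, 2 higher and 6 lower in DON, where 51.5% of all tested genes had no overlap, 24.9% as higher and 26.5% as lower.

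**Figure D1:**
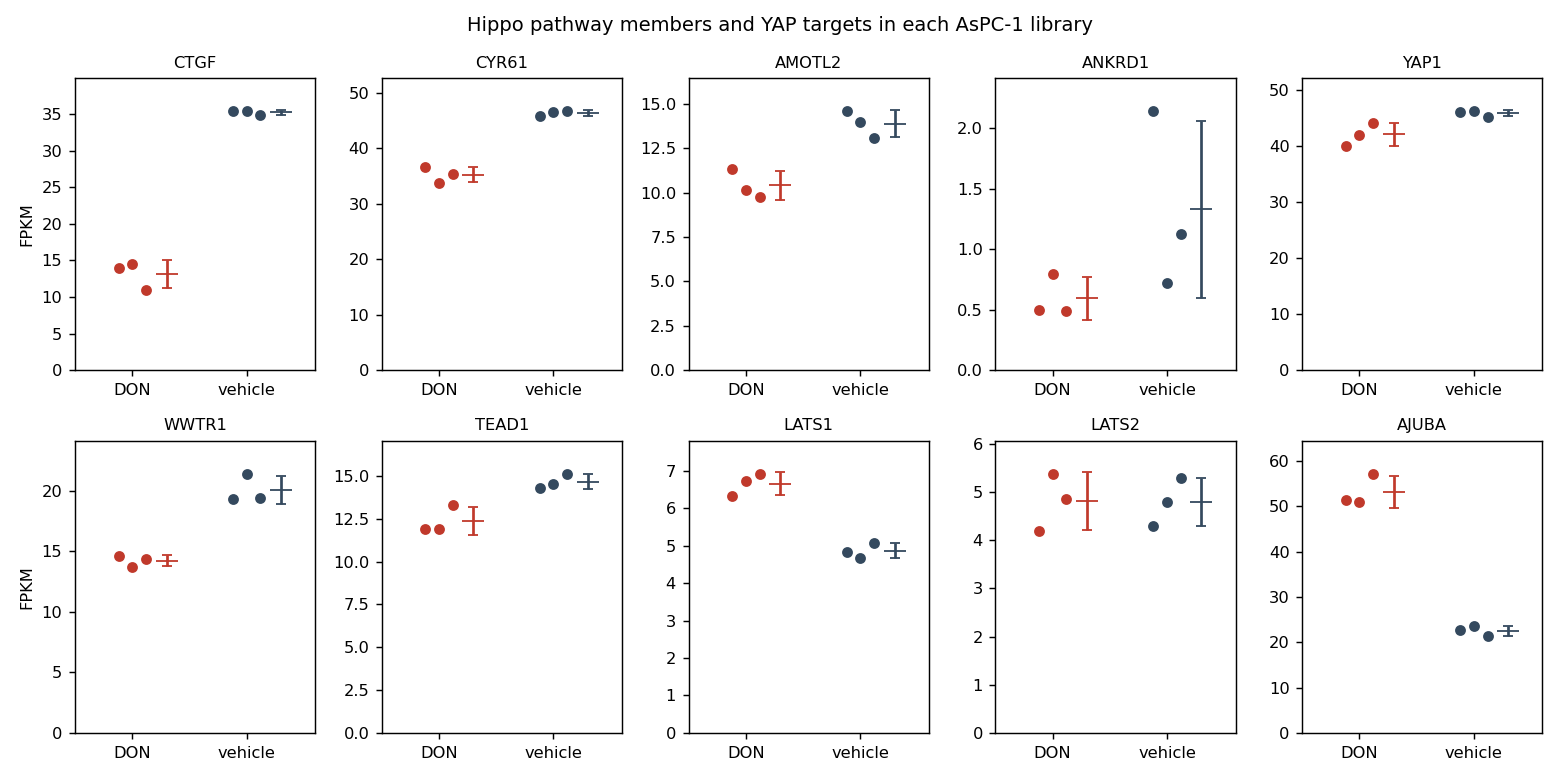
FPKM of each of the 10 members in every library, on linear axes that start at 0, with DON on the left and vehicle on the right of each panel. Points are libraries in the order of their numbers, and the bar beside them is the mean with its SD (n = 3 per group). CTGF and AJUBA show the widest gaps between groups, while the groups overlap for LATS2 and ANKRD1.

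Among the targets, CTGF moved most. CTGF, a secreted matrix-associated protein of the CCN family, had 14.0, 14.5 and 10.9 FPKM in DON libraries 1 to 3, against 35.4, 35.4 and 34.9 FPKM in vehicle libraries 1 to 3. The vehicle libraries lay within 1 FPKM of each other, and every DON library lay far below them. CTGF averaged 13.1 ± 1.91 FPKM in DON and 35.2 ± 0.331 FPKM in vehicle (SD, n = 3 each), a 2.68-fold fall. Its log2 fold change was -1.37 ± 0.11 (SE; 95% interval -1.64 to -1.10, limma adjusted p = 0.000251), which ranked 199 among all falls. CYR61, the CCN-family relative that is also a secreted matricellular protein, had 36.6, 33.8 and 35.3 FPKM in DON, against 45.8, 46.5 and 46.7 FPKM in vehicle. The groups were tight and separate, but the gap was small: CYR61 fell 1.31-fold (log2 fold change -0.39 ± 0.07 SE, 95% interval -0.56 to -0.21, limma adjusted p = 0.00702).

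AMOTL2 encodes an angiomotin-like scaffold at cell junctions that binds YAP and is itself raised by it. Its levels were 11.3, 10.2 and 9.75 FPKM in DON, against 14.6, 14.0 and 13.1 FPKM in vehicle. All 3 DON libraries lay below all 3 vehicle libraries, and AMOTL2 fell 1.34-fold (log2 fold change -0.39 ± 0.09 SE, limma adjusted p = 0.0167). That call was lost without DON 2 (adjusted p = 0.0734), DON 3 (0.0656), vehicle 1 (0.0511) or vehicle 2 (0.0560), by the same limma fit. ANKRD1, an ankyrin-repeat protein best known from heart muscle and a YAP target in many cells, had 0.495, 0.797 and 0.489 FPKM in DON, against 2.15, 0.723 and 1.13 FPKM in vehicle. DON 2 lay above vehicle 2, so the groups overlapped, and the spread of the vehicle libraries (SD 0.733 around a mean of 1.33 FPKM) was about as wide as the gap between the means. Fitted without the filter on low values, ANKRD1 was not called (limma adjusted p = 0.365).

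RefSeq windows before the transcription starts show the letters that TEAD factors bind. The table (build GRCh38.p14) held 8 of the 10 members, with 12 starts. CYR61 and TEAD1 had no entry. In the 250 bases before each start, the TEAD hexamer GGAATG was searched on both strands. TGANTCA, with N any base, is a loose form of the AP-1 motif and was searched likewise. At least 1 TEAD hexamer lay in 5 of the 12 windows, each from a different gene, where 11.9% of 35116 such windows of all genes held one. CTGF held 3 hexamers, a number reached by 0.0826% of all windows, and they began 169, 104 and 95 bases before the start. ANKRD1 held 2 hexamers, as 0.940% of all windows did at least, and a match of TGANTCA spelled TGATTCA. At least 1 match of TGANTCA lay in 6.57% of windows. AMOTL2 held 1, on the opposite strand, before its start 2, and YAP1 and AJUBA (start 2) held 1 each. LATS1 (start 1) held a match of TGANTCA spelled TGAATCA and no hexamer, and no hexamer was found in the windows of WWTR1 and LATS2. These are matches of letters in a reference, not measured binding sites, and starts of one gene were numbered in the order of transcription. The windows of 3 targets and of AJUBA, the member with the largest rise, are printed on the gene's strand with the TEAD hexamers in capitals.
CTGF, chr6:131951373-131951622, minus strand: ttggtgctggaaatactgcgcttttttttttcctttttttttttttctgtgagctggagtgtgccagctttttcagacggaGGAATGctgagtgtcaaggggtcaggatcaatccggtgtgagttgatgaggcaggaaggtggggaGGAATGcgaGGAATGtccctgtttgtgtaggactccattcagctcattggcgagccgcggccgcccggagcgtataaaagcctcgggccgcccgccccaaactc
ANKRD1, chr10:90921088-90921337, minus strand: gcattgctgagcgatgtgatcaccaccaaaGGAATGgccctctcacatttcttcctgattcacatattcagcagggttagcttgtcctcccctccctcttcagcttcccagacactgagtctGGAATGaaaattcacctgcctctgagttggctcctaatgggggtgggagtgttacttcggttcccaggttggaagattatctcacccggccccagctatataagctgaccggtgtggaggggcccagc
AMOTL2 start 2, chr3:134374448-134374697, minus strand: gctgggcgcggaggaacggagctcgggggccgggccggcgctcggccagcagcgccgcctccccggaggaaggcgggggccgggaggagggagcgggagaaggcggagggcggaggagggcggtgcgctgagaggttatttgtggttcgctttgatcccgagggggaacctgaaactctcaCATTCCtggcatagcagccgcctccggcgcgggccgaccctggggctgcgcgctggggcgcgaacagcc
AJUBA start 2, chr14:22976843-22977092, minus strand: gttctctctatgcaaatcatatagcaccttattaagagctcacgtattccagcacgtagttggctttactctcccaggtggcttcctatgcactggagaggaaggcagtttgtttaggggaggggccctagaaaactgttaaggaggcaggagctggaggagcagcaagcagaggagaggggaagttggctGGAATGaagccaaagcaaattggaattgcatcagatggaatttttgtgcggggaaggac
The 3 hexamers of CTGF lie on the gene's own strand, and the later pair are set apart by 3 bases, whereas the single match of AMOTL2 reads in the other direction.

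**Figure D2:**
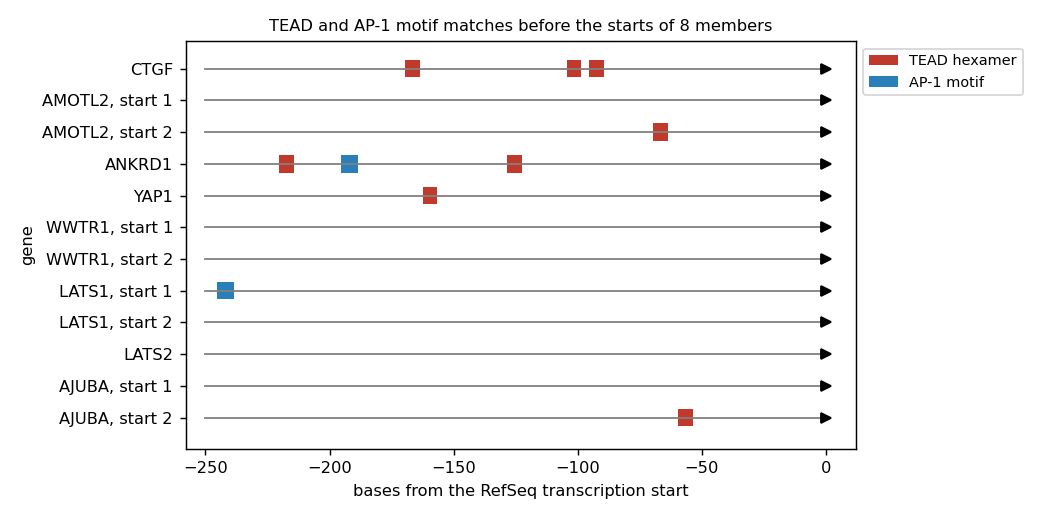
Positions of TEAD hexamer matches (red) and TGANTCA matches (blue) in the 250 bases before each RefSeq start of 8 members. TGANTCA, with N any base, is a loose form of the AP-1 motif. The x axis is the distance in bases from the start, which the arrowhead marks. CTGF has 3 hexamers and ANKRD1 has 2, and 7 of the 12 windows have no hexamer.

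Of the coactivator genes, WWTR1 fell and YAP1 was not called. WWTR1, the gene of TAZ, had 14.6, 13.7 and 14.3 FPKM in DON, against 19.4, 21.4 and 19.4 FPKM in vehicle. Every DON library was below every vehicle library, and WWTR1 fell 1.41-fold (log2 fold change -0.47 ± 0.08 SE, 95% interval -0.66 to -0.27, limma adjusted p = 0.00516). YAP1 had 40.1, 42.1 and 44.2 FPKM in DON, against 46.1, 46.3 and 45.3 FPKM in vehicle. The DON values were all lower, but the highest came within about 1 FPKM of the lowest vehicle value, and YAP1 was not called (log2 fold change -0.12, 95% interval -0.30 to 0.06, limma adjusted p = 0.243). The interval leaves room for a fall of up to 0.30 on the log2 scale. TEAD1, the DNA-binding partner through which YAP and TAZ act, had 11.9, 11.9 and 13.3 FPKM in DON, against 14.3, 14.5 and 15.1 FPKM in vehicle. Its groups did not overlap, yet it missed the threshold (log2 fold change -0.23, 95% interval -0.43 to -0.03, limma adjusted p = 0.0708). With a term for the library split on the second principal component, TEAD1 passed as lower (limma adjusted p = 0.0248).

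Of the kinases that phosphorylate YAP and TAZ, LATS1 rose and LATS2 was not called. LATS1 had 6.32, 6.73 and 6.93 FPKM in DON, against 4.83, 4.68 and 5.09 FPKM in vehicle. The groups were separate, and LATS1 rose 1.37-fold (log2 fold change 0.39 ± 0.09 SE, 95% interval 0.17 to 0.60, limma adjusted p = 0.0143). This call was lost without DON 2 (adjusted p = 0.0669), DON 3 (0.0630) or vehicle 2 (0.0531) in the limma fit. LATS2, a kinase of the same family and a YAP target in a feedback loop, had 4.20, 5.38 and 4.85 FPKM in DON, against 4.30, 4.80 and 5.29 FPKM in vehicle. The groups covered the same range, and LATS2 was not called (log2 fold change 0.00, 95% interval -0.28 to 0.29, limma adjusted p = 0.987).

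AJUBA showed the largest rise of the members. It encodes a LIM-domain protein of cell junctions that binds LATS kinases and inhibits them. AJUBA had 51.3, 50.9 and 57.2 FPKM in DON, against 22.8, 23.5 and 21.3 FPKM in vehicle. Each DON library was far above each vehicle library. AJUBA averaged 53.1 ± 3.55 FPKM in DON and 22.5 ± 1.13 FPKM in vehicle (SD, n = 3 each), a 2.36-fold rise with a log2 fold change of 1.20 ± 0.09 (SE; 95% interval 1.00 to 1.41, limma adjusted p = 0.000141). By size it ranked 216 among all rises.

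**Figure D3:**
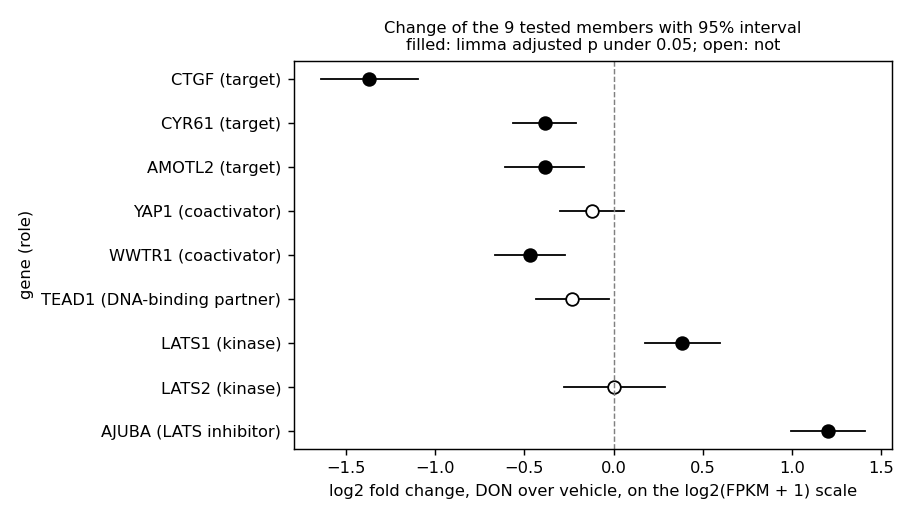
Log2 fold change of DON over vehicle on the log2(FPKM + 1) scale for the 9 tested members, ordered by role, with 95% intervals from limma as lines. Filled points passed an adjusted p of 0.05 and open points did not. CTGF at -1.37 and AJUBA at 1.20 stand farthest from 0, and the interval of LATS2 is centred near 0.

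The order of FPKM levels among the members was not the same in the groups. In DON, AJUBA led (53.1 ± 3.55 FPKM), followed by YAP1 (42.1 ± 2.05) and CYR61 (35.2 ± 1.38). WWTR1, CTGF and TEAD1 came next at 14.2 ± 0.475, 13.1 ± 1.91 and 12.4 ± 0.829 FPKM, with neighbours whose ranges overlapped. In vehicle, CYR61 (46.3 ± 0.506 FPKM) and YAP1 (45.9 ± 0.548 FPKM) led with overlapping ranges, and CTGF stood in the next place. AJUBA and WWTR1 then overlapped, as did TEAD1 and AMOTL2, and LATS1 and LATS2 (SD, n = 3 for each mean). LATS1 and LATS2 no longer overlapped in DON, at 6.66 ± 0.310 and 4.81 ± 0.593 FPKM, and ANKRD1 stood lowest in both groups.

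Ratios of FPKM within a library compare related genes free of scaling between libraries. CTGF over CYR61 was 0.382, 0.428 and 0.310 in DON, against 0.774, 0.763 and 0.746 in vehicle. WWTR1 over YAP1 was 0.365, 0.326 and 0.324 in DON, against 0.420, 0.463 and 0.429 in vehicle. CTGF thus lost ground to CYR61, and WWTR1 to YAP1, in every DON library. LATS1 over LATS2 was 1.51, 1.25 and 1.43 in DON, against 1.12, 0.976 and 0.962 in vehicle. AJUBA over LIMD1, a LIM protein of the same family, was 8.64, 10.05 and 12.9 in DON, against 3.08, 3.24 and 3.51 in vehicle. For each of these 4 ratios the groups did not overlap, and the exact two-sided permutation test gave p = 0.1, before and after adjustment over the 4, which is the smallest p that 3 against 3 libraries allow. Of all tested genes taken singly, 51.5% had no overlap, and how often ratios of other pairs separate was not counted. For AJUBA over LIMD1 the separation was fixed in advance, because every DON library was higher in AJUBA and lower in LIMD1 than every vehicle library. The pairs were chosen with earlier results of these data known.

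**Figure D4:**
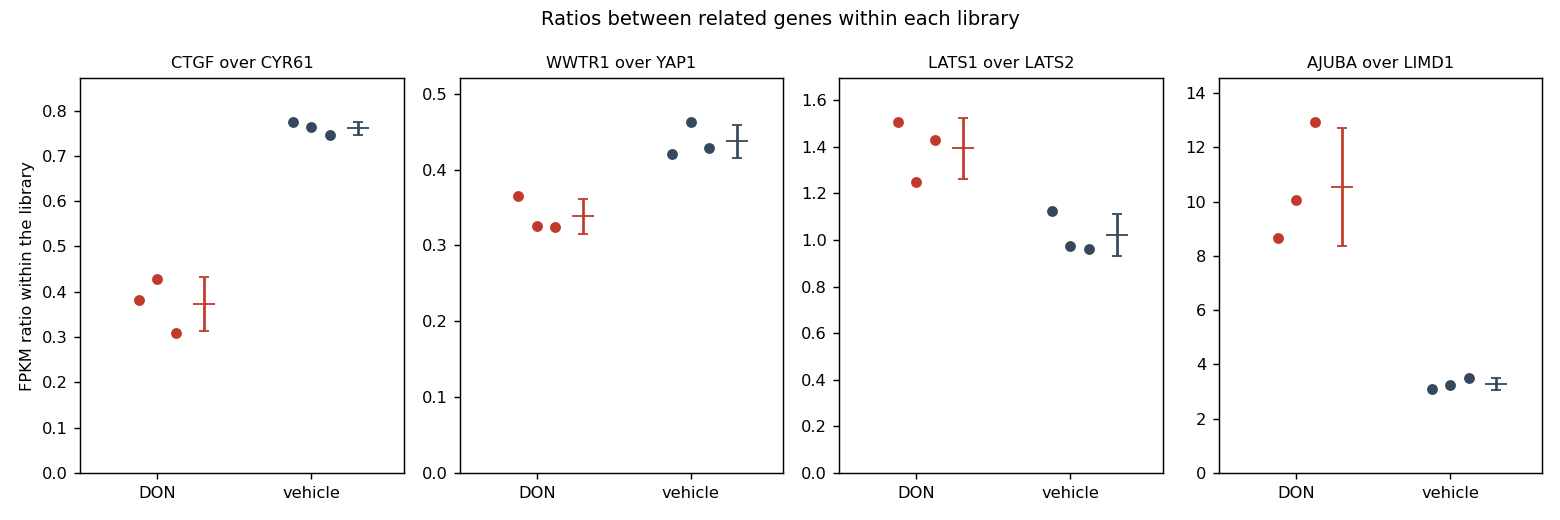
FPKM ratios between related genes within each library, on linear axes that start at 0, with DON on the left and vehicle on the right. Points are libraries and bars are the mean with its SD (n = 3 per group). CTGF over CYR61 is 0.310 to 0.428 in DON and 0.746 to 0.774 in vehicle, and AJUBA over LIMD1 is 8.64 to 12.9 in DON and 3.08 to 3.51 in vehicle.

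The wider pathway was described with 6 lists of parts, 71 genes in all, of which 63 were tested. Of these, 9 rose, 19 fell and 35 were not called, so that 44.4% were called, beside 38.9% of all tested genes. Their median log2 fold change was -0.11, against -0.01 for all tested genes. AMOTL2, LATS2 and PTPN14 are in the lists of parts and also in the target list, so AMOTL2 is among the 19 that fell. Together with the YAP/TAZ targets, and with each gene counted once, 33 of 76 tested genes were called. That count was 13 without DON 2, 20 without DON 3, 21 without vehicle 1 and 18 without vehicle 2. Over all 11471 tested genes the calls fell too, from 4459 to 2697, 3149, 3560 and 3246 in these fits. Calls of 12 genes held in every alternative that tested them: CTGF, CYR61, WWTR1, STK38L, MAP4K2, TNIK, FAT1 and TEAD2 as lower, and AJUBA, SLMAP, SIKE1 and IGFBP3 as higher. How many of all called genes held in this way was not counted.

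In the kinase core, 2 of 9 tested genes rose and 3 fell (55.6% called, beside 38.9% of all tested genes; median log2 fold change 0.00). STK38L, a kinase of the NDR family next to LATS, fell 1.54-fold, with 8.59 ± 1.01 FPKM in DON and 13.2 ± 0.710 FPKM in vehicle. STK38, its closest relative, stood at 21.2 ± 0.939 and 22.8 ± 1.28 FPKM in DON and in vehicle (limma adjusted p = 0.396). Of the MST kinases, STK4 (MST1) rose 1.37-fold, a call lost without DON 2, vehicle 1 or vehicle 3 (limma adjusted p up to 0.0852). STK3 (MST2) fell 1.21-fold, a call lost when any 1 of the 6 libraries was left out (limma adjusted p up to 0.148).

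Kinases that can activate LATS in place of the MST kinases gave 1 higher and 3 lower of 9 tested (median 0.05). Of these 9, 44.4% were called, beside 38.9% of all tested genes. MAP4K2 fell to 3.54 ± 0.381 FPKM in DON, against 6.34 ± 0.762 FPKM in vehicle, and TNIK fell to 4.79 ± 0.524 FPKM, against 7.05 ± 0.267 FPKM. MAP4K4 rose 1.28-fold and TAOK2 fell 1.41-fold. Both calls were lost without DON 2, DON 3, vehicle 1 or vehicle 2, at limma adjusted p up to 0.0881 for MAP4K4 and 0.131 for TAOK2.

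Among upstream scaffolds at the membrane, 1 of 11 tested genes rose and 5 fell (median -0.16, 54.5% called beside 38.9% of all tested genes). AMOTL2, also listed as a target, was 1 of these 5. FAT1, a giant protocadherin, had 16.5, 16.0 and 16.3 FPKM in DON, against 32.4, 34.4 and 30.8 FPKM in vehicle. Its groups were far apart, with a log2 fold change of -0.96 ± 0.08 (SE, limma adjusted p = 0.000244). NF2, the gene of merlin, which brings LATS to the membrane, fell 1.84-fold to 2.96 ± 0.606 FPKM in DON, against 5.44 ± 0.836 FPKM in vehicle, and its call was lost without DON 2 (limma adjusted p = 0.0509). The junction scaffold TJP1 rose 1.55-fold, a call lost without DON 2, DON 3, vehicle 1 or vehicle 2 (limma adjusted p up to 0.0869). Of the angiomotins, AMOTL1 stood at 0.806 and 0.789 FPKM on average in DON and in vehicle, and AMOT at 0.0164 and 0.0109 FPKM, so that AMOTL2 was the angiomotin with the highest level.

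Inhibitors of the kinase relay gave 4 higher and 2 lower of 13 tested (median -0.02, 46.2% called beside 38.9% of all tested genes). Besides AJUBA, the list holds the STRIPAK complex, a phosphatase assembly that dephosphorylates the MST kinases. SLMAP, its adaptor for these kinases, had 59.8, 67.5 and 66.3 FPKM in DON, against 36.0, 33.0 and 37.6 FPKM in vehicle. SIKE1, which binds SLMAP, had 10.0, 11.0 and 10.5 FPKM in DON, against 5.29, 5.59 and 6.50 FPKM in vehicle. Both were separate between groups and rose 1.82-fold and 1.81-fold (limma adjusted p = 0.000634 for SLMAP and 0.00152 for SIKE1). The scaffold STRN rose 1.58-fold (limma adjusted p = 0.0107), a call lost with no filter on low values (0.0544). The 2 genes of the list that fell were PPP2R1A and STRN3, also of STRIPAK. PPP2R1A had 61.4 ± 9.61 FPKM in DON and 84.9 ± 8.10 FPKM in vehicle (limma adjusted p = 0.0308). STRN3 had 11.9 ± 0.518 and 14.5 ± 0.821 FPKM (0.0445). Both calls were lost without DON 2, DON 3 or vehicle 2, among other fits. The other STRIPAK genes of the list were not called. LIMD1, the family relative of AJUBA, stood at 5.14 ± 0.757 FPKM in DON and 6.90 ± 0.728 FPKM in vehicle and missed the threshold (limma adjusted p = 0.0589). LIMD1 passed as lower without DON 1 (0.0305) or vehicle 3 (0.0432), by the same limma fit. WTIP, the other family member, averaged 0.313 FPKM in DON and 0.195 FPKM in vehicle and was not tested.

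Genes that hold or degrade YAP gave 1 higher and 3 lower of 13 tested (median -0.12, 30.8% called beside 38.9% of all tested genes). The 3 that fell encode 14-3-3 proteins, which bind phosphorylated YAP: YWHAH fell 1.34-fold, YWHAB 1.30-fold and YWHAG 1.29-fold. CSNK1E, a casein kinase of the step that marks YAP for degradation, rose 1.20-fold. None of these 4 calls held throughout. Among the 6 fits that left out 1 library, YWHAB (limma adjusted p = 0.0502) and YWHAG (0.0590) were lost without DON 2. In these 6 fits YWHAH was lost in all but that without DON 3 (up to 0.103), and CSNK1E in all but that without vehicle 1 (up to 0.135).

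In the nuclear complex, 0 of 8 tested genes rose and 3 fell (median -0.18). The share called was 37.5%, near the 38.9% of all tested genes. Besides WWTR1, TEAD2 fell to 2.18, 1.53 and 1.48 FPKM in DON, against 4.87, 4.91 and 3.91 FPKM in vehicle, a log2 fold change of -1.03 ± 0.14 (SE, limma adjusted p = 0.00187). TEAD3 fell 1.42-fold, a call lost when any 1 of the 6 libraries was left out (limma adjusted p up to 0.169). TEAD4 stood at 9.49 ± 0.836 FPKM in DON and 9.01 ± 1.03 FPKM in vehicle (limma adjusted p = 0.651). VGLL4, which competes with YAP for TEAD, stood at 18.6 ± 0.930 and 17.1 ± 1.77 FPKM in DON and in vehicle, and VGLL3 at 3.46 ± 0.425 and 3.82 ± 0.497 FPKM. VGLL1 and VGLL2 were at the floor in every library. TEAD1 had the highest FPKM level of the TEAD genes in both groups.

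**Figure D5:**
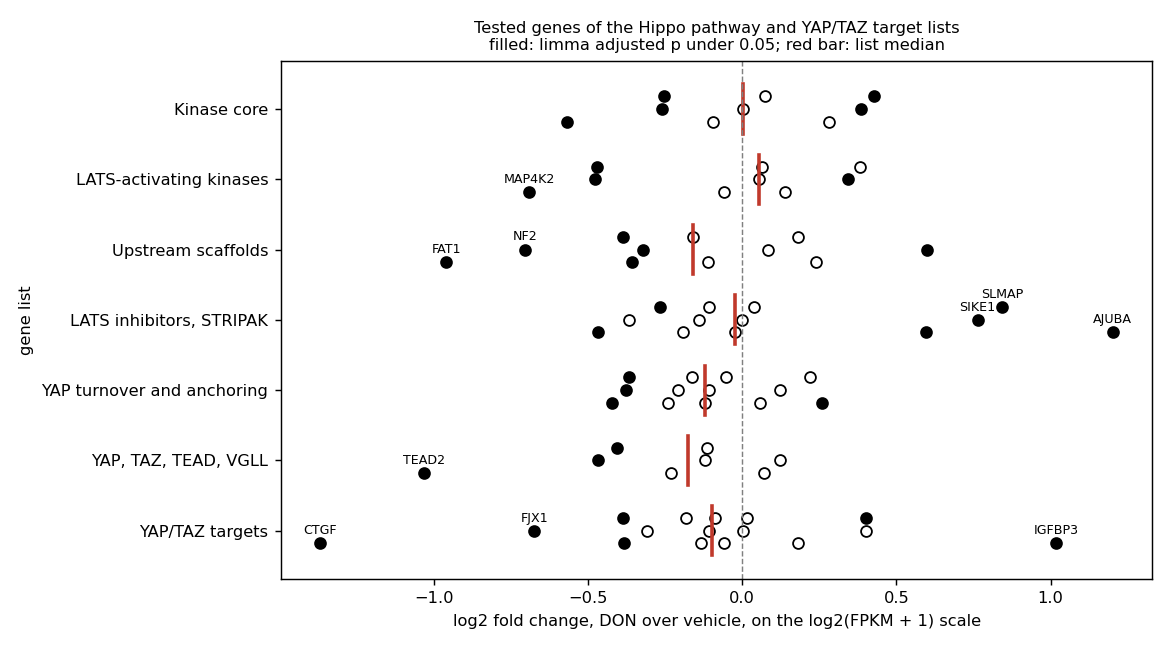
Log2 fold change of DON over vehicle on the log2(FPKM + 1) scale for every tested gene of the 6 pathway lists and the YAP/TAZ target list. Filled points passed a limma adjusted p of 0.05, open points did not, and the red bar is the list median. List medians lie between -0.18 and 0.05, and targets are found on both sides of 0, from CTGF at -1.37 to IGFBP3 at 1.02.

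The wider list of YAP/TAZ targets, LATS2 included, has 22 genes, of which 16 were tested: 2 rose, 4 fell and 10 were not called (median log2 fold change -0.10), so that 37.5% were called, near the 38.9% of all tested genes. Leaving aside the members, 2 of 12 tested targets rose and 1 fell, or 25% called. IGFBP3, a secreted binder of insulin-like growth factors, had 837, 884 and 1024 FPKM in DON, against 435, 428 and 488 FPKM in vehicle. It rose 2.03-fold, with no overlap (log2 fold change 1.02 ± 0.11 SE, limma adjusted p = 0.000621). AXL, a receptor tyrosine kinase, had 62.0, 49.5 and 49.4 FPKM in DON, against 38.6, 43.7 and 38.2 FPKM in vehicle, and rose 1.33-fold. The call of AXL was lost without DON 2, vehicle 1 or vehicle 3 (limma adjusted p up to 0.0922). FJX1, a Golgi kinase of the FAT and Dachsous branch in flies, fell 1.85-fold to 2.53 ± 0.335 FPKM in DON, against 4.68 ± 1.01 FPKM in vehicle, a call lost without DON 2 (limma adjusted p = 0.0668) or vehicle 2 (0.0566). The targets with high levels MYOF, F3 and NT5E were not called, at 128, 152 and 60.4 FPKM in DON and 141, 150 and 62.7 FPKM in vehicle. NUAK2 was too low for a test, at 0.0151, 0.0624 and 0.117 FPKM in DON and 0.378, 0.532 and 0.454 FPKM in vehicle. The CCN family beyond CTGF and CYR61 (NOV, WISP1, WISP2 and WISP3) averaged below 1 FPKM in both groups.

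CTGF and CYR61 are also known to respond to actin through SRF and to immediate early signals, so these lists stand beside them. Of 14 tested SRF and MRTF targets, 1 rose and 3 fell (28.6% called, beside 38.9% of all tested genes; median -0.21). FHL2 rose 2.12-fold to 256 ± 2.76 FPKM in DON, against 121 ± 5.02 FPKM in vehicle, and ACTB, the beta-actin gene, fell 1.62-fold, a call lost with no filter on low values (limma adjusted p = 0.0784). VCL and MYH9 fell 1.41-fold and 1.36-fold. VCL was lost without DON 2 (limma adjusted p = 0.0700) and MYH9 without DON 2, DON 3, vehicle 1 or vehicle 2 (up to 0.119). Of 13 tested immediate early genes, 4 rose and 1 fell (median 0.22), and the 38.5% called was near the 38.9% of all tested genes. The stress-responsive ATF3 rose 3.33-fold, with 6.38 ± 0.426 FPKM in DON and 1.92 ± 0.770 FPKM in vehicle (limma adjusted p = 0.00165). DUSP1 rose 1.74-fold (limma adjusted p = 0.00388). NR4A1 fell 2.77-fold, with 1.59 ± 0.469 FPKM in DON and 4.42 ± 0.658 FPKM in vehicle (limma adjusted p = 0.00328). These folds are ratios of means at low levels. On the log2(FPKM + 1) scale, the log2 fold change was 1.37 for ATF3 and -1.07 for NR4A1. FOSL1, a part of AP-1, rose 1.68-fold, a call lost without DON 2, DON 3, vehicle 1 or vehicle 2 (limma adjusted p up to 0.0854).

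Profiles most like those of 3 members were sought among the other tested genes by Pearson correlation of log2(FPKM + 1) over the 6 libraries, as a description. With 2 groups of 3 libraries, a correlation mostly reflects the difference between groups. CTGF was most like ALDH1A1, AGMAT and AKAP1, CYR61 was most like MIR31HG, LDHA and DCUN1D3, and each of these correlations was above 0.99. For CTGF 90 genes and for CYR61 74 genes passed 0.99. YAP1 was most like KIAA0232, RP2 and PCGF3, at 0.975 to 0.977, and no gene passed 0.99 with it.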

How the data were processed

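Poly(A) RNA of AsPC-1 cells was sequenced as single reads of 75 bp from strand-directed libraries, per the labels' protocols, and the submitters' processing notes name STAR, with no version, and the build hg19. The authors deposited FPKM values per gene symbol and library. How FPKM was computed, the annotation and the strand setting: not given in the sources used here. Columns named control were matched to the vehicle samples by number. Genes with a failure mark in any library (41 of 26228 rows, none of them a member) were left out of tests.

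Values were transformed to log2(FPKM + 1), which understates changes near 1 FPKM. The 11471 genes that reached 1 FPKM in 3 or more libraries were fitted in limma 3.58.1 (R 4.3.3), DON against vehicle, with an intensity trend, two-sided, and adjusted over all tested genes. The fit was tested on simulated data with separate noise for each gene and library and few changed genes. That simulation had no effect shared within a library, so it does not cover the library split or changes this widespread. Folds beside FPKM means are ratios of means. Tables and plots used Python 3.11.15, pandas 2.3.3, numpy 2.4.6, scipy 1.17.1 and matplotlib 3.10.9. All 131 entries of the 10 gene lists were found. The members, lists, ratios and tests were chosen with earlier results of these data known. Named genes are the members, the tested TEAD, VGLL, angiomotin, Ajuba, NDR and CCN family genes, per list up to 4 called genes by size of change, and 3 genes most like CTGF, CYR61 and YAP1 each. Outside this rule, MYOF, F3, NT5E, NUAK2, PPP2R1A, STRN3 and the untested family genes (AMOT, AMOTL1, WTIP, VGLL1, VGLL2, NOV and WISP1 to WISP3) were named after their values were seen. Alternatives changed 1 choice at a time: the pseudocount (0.1), the low-value filter (none, or 5 FPKM), the scaling (median of ratios, or quantiles), the trend (none), an added replicate block, a term for the library split, and each library left out. Promoter windows came from RefSeq (GRCh38.p14) and were matched by symbol.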

Additional observations from a re-analysis of the deposited data

How the results depend on the processing

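CTGF, CYR61, WWTR1 and AJUBA kept their call in all 14 alternatives. Their log2 fold changes ranged from -1.44 to -1.25 for CTGF, -0.41 to -0.36 for CYR61, -0.49 to -0.42 for WWTR1 and 1.15 to 1.23 for AJUBA. AMOTL2 lost its call in 4 and LATS1 in 3 of the alternatives that left out a library, and YAP1 (adjusted p 0.103 to 0.426) and LATS2 (0.587 to 1) passed in none. Leaving out each library in turn gave 2697 to 4656 called genes over the whole table, 1212 to 2133 higher and 1485 to 2523 lower. Among the members it gave 4 to 6 calls, 1 to 2 higher and 3 to 4 lower, and in the pathway and target lists together 13 to 29 calls, 5 to 11 higher and 8 to 19 lower. With no filter on low values 2942 genes were called over the table, 1391 higher and 1551 lower, and 7 of the lists' genes were called as higher, against 11. Of the 33 called genes in these lists, 21 lost their call in at least 1 alternative and the cause was not tested. Among the genes named, the fit with no filter ended the calls of STK3, STK4, TAOK2, NF2, TJP1, STRN, PPP2R1A, YWHAH, TEAD3, AXL, FJX1, ACTB, VCL, MYH9 and FOSL1. Median-of-ratios scaling ended those of STK3, STRN3, YWHAH and TEAD3, and quantile normalization those of STRN3, YWHAH and TEAD3. Limma without a trend ended those of STK3 and CSNK1E. The replicate block changed no member's call and gave 5414 called genes and 37 in the lists. The numbers share no stated origin, and deviations of same-numbered libraries correlated at 0.254, -0.184 and 0.502. Not every pair was above 0.1, so the samples were treated as sharing only a number. With the library split term 6031 genes, 7 members and 45 list genes were called. The difference within DON 1, vehicle 1 and vehicle 2, and within DON 2, DON 3 and vehicle 3, was -1.28 and -1.40 for CTGF and 1.12 and 1.30 for AJUBA (log2, no test), and its sign was fixed because the groups of both genes do not overlap. No scaling moved the median of all tested genes by more than 0.1 (log2).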
